A study of Homo sapiens with 8 samples.

Results

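The MM line INA-6 depends on interleukin-6 and serves as a model of malignant plasma cells. Its mature miRNAs are described here on the 4 of 8 arrays of the series whose titles name DMSO, the solvent, as the control. The arrays carrying RNA of UNC1999-treated cells were not compared. The sample titles call these arrays biological replicates, and they are named DMSO replicates 1 to 4. Cells seeded at 100000 per mL in medium with 10% FBS were kept for 120 hours with the medium refreshed at 72 hours, and 100 ng of total RNA was labelled for each single-colour array. Titles and paper give DMSO as the control, whereas the treatment protocol of the labels names the inactive compound UNC2400. All arrays described lay on 1 slide. INA-6 is a single cell line, so that the values describe this line and not MM cells of patients.

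A miRNA is cut from a hairpin precursor whose arms, named 5p and 3p, can each give a mature RNA of about the length of a short primer. The mature strand is held by an Argonaute protein and pairs with messenger RNAs mainly through its seed, here bases 2 to 8, so that miRNAs sharing a seed share many targets. Some hairpins lie close together in the genome and are made from a common transcript, of which the miR-17-92 cluster, a target of c-MYC, is the best known in B-cell cancers. Signal on a miRNA array depends on labelling and on the probe as well as on the amount of RNA, and the orders given below are therefore orders of signal, not of molecules.

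The sequences of the brightest miRNAs are printed because a few of them carry most of the signal and because several share a seed or an end. They come from the RefSeq annotation of GRCh38.p14, where 2248 of the 2549 human names on the array were matched, and capitals mark the seed. The brightest human miRNAs on the arrays, miR-7975 and miR-7977, are each 18 bases long and have different seeds, but both end in CACCA, as does miR-1260a. miR-1260b, which shares the seed of miR-1260a, was shown beside it after the values were seen.
miR-7975: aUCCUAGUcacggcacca
miR-7977: uUCCCAGCcaacgcacca
miR-1260a: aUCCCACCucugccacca
miR-1260b: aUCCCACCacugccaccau
Among the other bright miRNAs with high numbers, miR-6089, miR-4516, miR-8069 and miR-6090 are rich in G, and miR-5100 is not.
miR-6089: gGAGGCCGggguggggcggggcgg
miR-4516: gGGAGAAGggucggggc
miR-8069: gGAUGGUUgggggcggucggcgu
miR-6090: gGGGAGCGaggggcggggc
miR-5100: uUCAGAUCccagcggugccucu
The largest group with a shared seed holds miRNAs of the miR-17-92 cluster and of its relatives.
miR-20a-5p: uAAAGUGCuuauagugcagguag
miR-17-5p: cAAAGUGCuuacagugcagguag
miR-106b-5p: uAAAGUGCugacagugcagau
miR-93-5p: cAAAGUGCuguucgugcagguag
miR-20b-5p: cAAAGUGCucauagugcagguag
The groups of miR-16, miR-19 and miR-29 also had several members detected on all arrays.
miR-16-5p: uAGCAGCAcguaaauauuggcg
miR-15b-5p: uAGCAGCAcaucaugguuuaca
miR-15a-5p: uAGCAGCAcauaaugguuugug
miR-424-5p: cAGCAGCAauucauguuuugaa
miR-19b-3p: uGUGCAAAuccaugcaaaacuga
miR-19a-3p: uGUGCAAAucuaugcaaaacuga
miR-29a-3p: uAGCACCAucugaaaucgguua
miR-29b-3p: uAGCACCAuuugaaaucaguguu
miR-29c-3p: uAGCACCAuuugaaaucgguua
miR-148a-3p, miR-21-5p and miR-142-3p led seeds of their own.
miR-148a-3p: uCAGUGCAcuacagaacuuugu
miR-21-5p: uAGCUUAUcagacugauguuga
miR-142-3p: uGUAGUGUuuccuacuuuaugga
Other bright miRNAs stand alone with their seeds.
miR-4284: gGGCUCACaucaccccau
miR-1246: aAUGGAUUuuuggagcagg
miR-6869-5p: gUGAGUAGuggcgcgcggcggc
Of the 25 brightest miRNAs, miR-4459, miR-7641, miR-3960, miR-6087 and miR-4286 are named only.

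Each array held 53144 spots, 50980 of them for 2549 human miRNAs, with 20 spots for every miRNA spread over 1 to 4 probes. The deposited scanner output gives each spot a background-subtracted intensity, called signal here, and marks each miRNA as detected or not. The signal of a miRNA was the mean over its probes, each the mean of its spots without those marked as outliers, which numbered 1491, 1590, 1629 and 1494 on DMSO replicates 1 to 4. The arrays were not equally bright. The 75th percentile of signal over the miRNAs detected on every array was 222, 137, 121 and 255, a 2.11-fold range with replicates 1 and 4 on the bright side. Bright control probes differed in their range, from 1.11-fold for dmr_6 and 1.16-fold for dmr_3 to 1.42-fold for hur_1, 1.65-fold for mr_1 and 1.85-fold for hur_5. Negative control spots averaged between 1.17 on replicate 1 and 2.45 on replicate 2, and the brightest miRNA reached 182772, 152708, 139276 and 205563. The lowest signal of a detected miRNA was 2.57, 2.97, 4.19 and 3.43 on replicates 1 to 4. From there to the brightest, signal spanned 4.52 to 4.85 orders of magnitude. The lower end lay close to the negative control spots, whose SD was 3.35 to 3.68.

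The arrays were alike in pairs. Across the 356 miRNAs detected on all arrays, log2 signals of replicates 1 and 4 correlated with a Pearson r of 0.999 and those of replicates 2 and 3 with 0.997, and the other pairs gave 0.987 to 0.990. These correlations run across miRNAs of a shared array design, which are not independent replicates. The log2 difference between replicates 1 and 4 had an SD of 0.12 and that between 2 and 3 an SD of 0.18, against 0.32 to 0.38 for the other pairs. Both alike pairs still differed by more than spot noise. Over 509 probes, the SD of the log2 difference was 0.10 for replicates 1 and 4 where the spread among spots gives 0.05, and 0.16 for replicates 2 and 3 where it gives 0.07. RNA of 1 culture labelled again can also differ by more than spot noise, so this comparison does not show that alike arrays held separate cultures. The titles name biological replicates, and n = 4 rests on them. The number of arrays limits the precision of every SD below.

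INA-6 cells showed signal for a small part of the human miRNAs on the array. By the scanner's own mark 482, 369, 370 and 484 were present on replicates 1 to 4, and the brighter arrays had the longer lists. Of 2549 miRNAs, 356 (14.0%) were detected on all 4 arrays, 148 on 1 to 3 arrays and 2045 (80.2%) on none. The intermediate class was dim throughout. It held 0.214% of the signal in all, its brightest member had a mean share of 0.00335%, and 83 of its 148 members were detected on replicates 1 and 4 alone. The miRNAs detected on every array thus accounted for 99.8% of the signal.

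The values next to the limit of detection overlapped. The dimmest miRNA detected on all arrays was miR-105-5p, whose gene lies on chromosome X, with signals of 4.19, 3.54, 4.19 and 5.03. miR-19b-1-5p, miR-16-2-3p, miR-619-5p and miR-221-3p followed, with means of 6.96, 7.73, 9.83 and 10.5. Among the miRNAs detected on no array the brightest was miR-98-3p, with signals of 9.94, 7.67, 9.43 and 9.74, and miR-5010-3p, miR-6757-3p, miR-6507-3p and miR-129-2-3p had means of 8.81, 8.54, 8.43 and 8.33. The call rests on single probes of a miRNA, and the best probe of miR-105-5p reached 19.3 where that of miR-98-3p reached 11.3. A signal near 10 could therefore fall on either side of the call.

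A pair of entries, miR-7975 and miR-7977, dominated the signal. Share is the percentage of the summed signal of all miRNAs detected on an array. miR-7975 held 45.0%, 49.2%, 50.0% and 44.3% on replicates 1 to 4, a mean of 47.1% ± 2.90 (SD, n = 4). miR-7977 held 19.8%, 21.9%, 21.5% and 20.1%, a mean of 20.8% ± 1.05 (SD, n = 4). The share of both was higher on replicates 2 and 3, although the signal of miR-7975 itself was higher on replicates 1 and 4. The order of miR-7975 above miR-7977, and of miR-7977 above every other miRNA, held on all 4 arrays with ranges that did not meet. RefSeq places miR-7975 at chr19:55123225-55123242 on the minus strand and miR-7977 at chr3:176515103-176515120 on the plus strand of GRCh38.p14.

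Concentration of the signal followed from this pair. The mean shares of 2 miRNAs added up to 50% of the signal, and 36 were needed for 90%. The 10 brightest miRNAs held 76.6%, 80.9%, 81.1% and 76.4% on replicates 1 to 4, a mean of 78.7% ± 2.63 (SD, n = 4), and the 50 brightest held 92.4% ± 0.86 (SD, n = 4). When miR-7975 and miR-7977 were left out of the total, a choice made after seeing the data, 16 miRNAs made up 50% and 112 made up 90%. In that reduced total the 10 brightest held 38.0%, 39.0%, 39.0% and 38.4%, a mean of 38.6% ± 0.45 (SD, n = 4). The arrays were thus alike in how concentrated the remaining signal was, although its sum differed 2.08-fold between them.

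**Figure D1:**
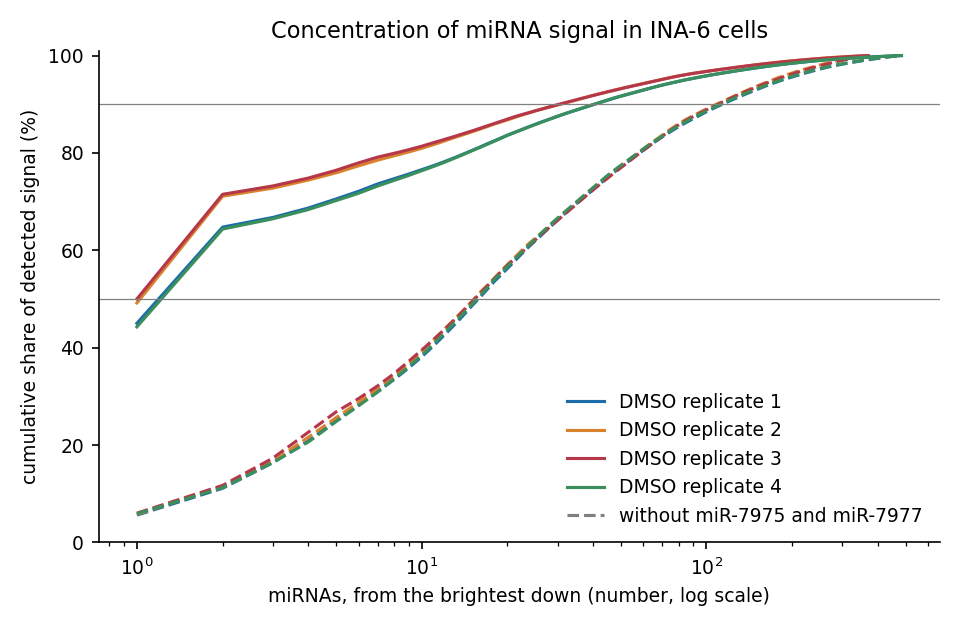
Cumulative share of the detected signal (%) against the number of miRNAs taken from the brightest down (log scale), 1 line per DMSO array, with dashed lines for the total without miR-7975 and miR-7977. Solid lines pass 50% with the first 2 miRNAs or fewer, while dashed lines need 16 and lie on each other for the 4 arrays.

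Among entries below the leading pair, miRNAs described late and long known miRNAs stood side by side. miR-4459 had a mean share of 1.86% ± 0.21 (SD, n = 4), miR-6089 of 1.71% ± 0.25, miR-4516 of 1.68% ± 0.20, miR-5100 of 1.57% ± 0.09 and miR-8069 of 1.36% ± 0.22. The brightest miRNA with a low number was miR-20a-5p of the miR-17-92 cluster, which ranked 8 on each of the 4 arrays with shares of 1.07%, 0.912%, 0.784% and 1.16%. miR-19b-3p of the same cluster held 0.819% ± 0.138 (SD, n = 4). miR-148a-3p, a miRNA known to be high in plasma cells, held 0.967%, 0.678%, 0.557% and 1.02%, and was highest on replicates 1 and 4, as it was in log2 scaled signal with 11.60, 11.39, 11.13 and 11.67. The order of the arrays for miR-20a-5p did not outlast scaling, where its log2 values were 11.75, 11.82, 11.63 and 11.85. Further long known miRNAs among the 25 brightest were miR-16-5p, miR-15b-5p, miR-17-5p, miR-29a-3p, miR-21-5p, miR-142-3p and miR-19a-3p, with mean shares from 0.371% for miR-19a-3p to 0.690% for miR-16-5p.

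Ranks within this list were loose. Of the 24 neighbouring pairs in the order of the 25 brightest miRNAs, 7 kept their order on all 4 arrays and 17 did not, and in 3 pairs the ranges of the shares did not meet. miR-21-5p and miR-142-3p, the first an often overexpressed miRNA in cancer and the second a marker of blood cells, had the same mean share of 0.390%. miR-4286 moved most in this list, from rank 21 on replicates 1 and 4 to rank 10 on replicate 2 and 11 on replicate 3. miR-148a-3p moved the other way, from rank 9 on replicates 1 and 4 to 13 and 15.

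**Figure D2:**
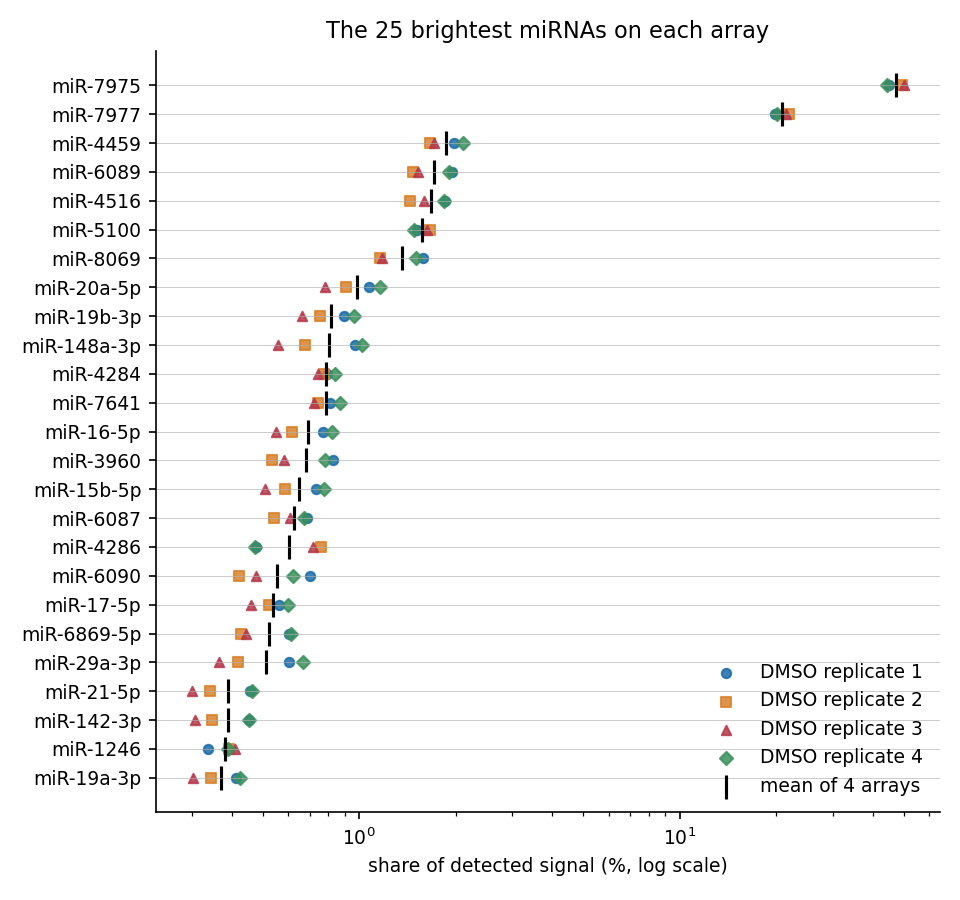
Share of the detected signal (%, log scale) of the 25 brightest miRNAs, with a coloured symbol for each DMSO array and a black bar for the mean. miR-7975 and miR-7977 lie apart from the rest, and most others have replicates 1 and 4 to the right. miR-4286, miR-5100 and, by little, miR-1246 have replicates 2 and 3 to the right, as they also have in the total without the leading pair. In that total miR-4459 and miR-7641 no longer lean to replicates 1 and 4. Unscaled signal was highest on replicates 2 and 4 for miR-4286 and on replicates 1 and 4 for miR-5100 and miR-1246.

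Probes to the same miRNA did not give equal signals. For the 25 brightest miRNAs, the brightest probe exceeded the dimmest of the same miRNA by 1.02-fold for miR-6090 up to 15.9-fold for miR-1246, with a median of 2.11-fold. The ratio was 2.04 for miR-7975 and 1.68 for miR-7977, both of which were bright with each probe. It was 13.4 for miR-17-5p and 12.4 for miR-4284. Ranks of these last entries therefore hang on how probes are combined, and with the brightest probe of each miRNA 24 of the 25 brightest and 8 of the 10 brightest were the same. With outlier spots kept, 21 of the 25 and 8 of the 10 were.

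The number in a miRNA's name was given in order of description, so that low numbers mark the long known, mostly conserved miRNAs. miRNAs numbered up to 1000, with let-7 among them, made up 910 of the 2549 entries and held 12.6%, 10.3%, 9.21% and 13.3% of the signal. Of these, 144 (15.8%) were detected on all arrays, against 212 of 1639 (12.9%) with higher numbers. Detection was most frequent among numbers up to 100, where 49 of 126 (38.9%) were detected on every array, and least among numbers 3001 to 4000 with 17 of 279 (6.09%). Without miR-7975 and miR-7977 the entries up to 1000 held 35.3% ± 2.12 (SD, n = 4) of the signal and those above 64.7% ± 2.12. Most of the signal beyond the leading pair thus also came from high numbers.

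Detected and silent miRNAs differed in base composition, mainly among the high numbers. The mature sequences of 307 of the 356 detected miRNAs and 1809 of the 2045 silent ones were matched. Their median content of G and C was 60.0% for those detected on all arrays and 50.0% for those detected on none. Among numbers up to 1000 the medians were 47.8% and 45.5%, and above 1000 they were 68.2% and 52.5%. A run of GGGG occurred in 83 of 181 (45.9%) detected miRNAs with numbers above 1000 and in 125 of 1178 (10.6%) silent ones, whereas it occurred in 9 of 126 (7.14%) detected miRNAs with lower numbers. A first base U, which Argonaute proteins favour, was found in 46.8% of detected and 30% of silent miRNAs up to 1000, whereas above 1000 it was found in 30.4% of detected and 40.6% of silent ones. Over all numbers the classes were alike, with 37.1% and 36.9%. Base composition also bears on labelling and probe binding, and its part in these shares was not tested.

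**Figure D3:**
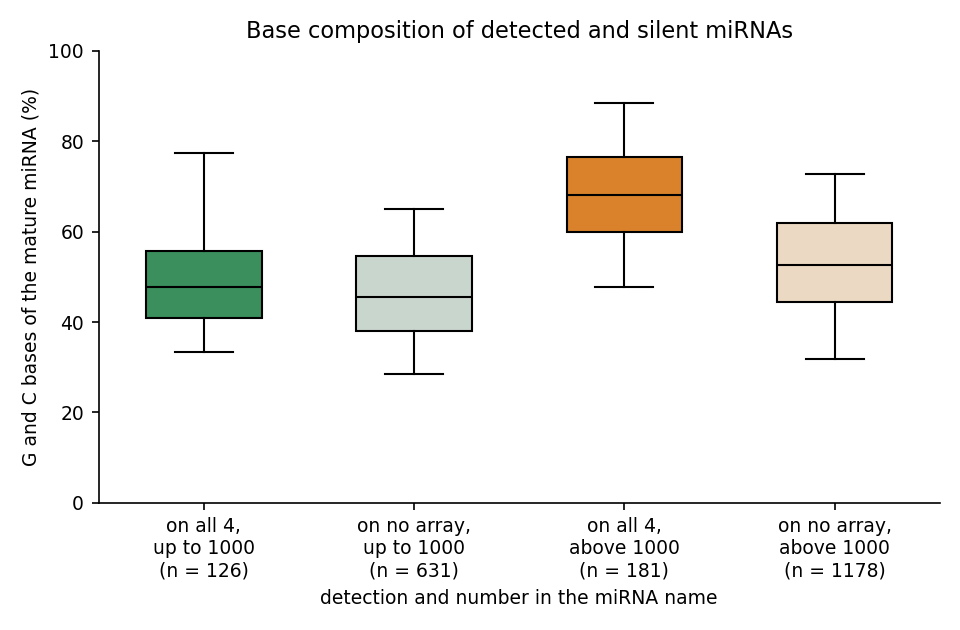
Content of G and C (%) of mature miRNAs detected on all 4 arrays or on no array, split at 1000 by the number in the name, with boxes from the lower to the upper quartile, a line at the median and whiskers from the 5th to the 95th percentile. Detected miRNAs above 1000 lie highest, with a median of 68.2%, and the other groups have medians of 45.5% to 52.5%.

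The shared end of miR-7975 and miR-7977 was rare among miRNAs. CACCA closed 5 of the 2248 matched mature sequences (0.222%), miR-7975, miR-7977 and miR-1260a, detected on all arrays, and miR-4252 and miR-876-5p, detected on none. The 5 together held 65.0%, 71.4%, 71.8% and 64.6% of the signal, of which miR-1260a contributed 0.261%. The end CCA alone was found in 42 matched miRNAs (1.87%), and apart from those already named the brightest of these was miR-572 with a mean share of 0.0132%. As background, mature tRNAs end in CCA, and tRNA sequences were not analysed here. The miRNAs of 18 bases numbered 67, 20 of them detected on all arrays where 307 of the 2248 matched miRNAs were, and held 70.2% of the signal, nearly all of it in miR-7975 and miR-7977, a length looked at after the values were seen.

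Grouped by seed, the matched miRNAs formed 1847 groups, 260 of which had a member detected on all arrays and 33 of which had several. The largest groups after those of miR-7975 and miR-7977, each alone with its seed among the matched miRNAs, included several known families. The group of miR-20a-5p held 2.16%, 1.94%, 1.70% and 2.32% of the signal, a mean of 2.03% ± 0.27 (SD, n = 4). Of its 7 members among the matched miRNAs, 5 were detected on all arrays, where 307 of the 2248 matched were, and miR-20a-5p provided 48.4% of the group's signal. The silent members were miR-519d-3p and miR-526b-3p, which belong to the primate cluster on chromosome 19 that is active in placenta. The group of miR-4516 (1.73% ± 0.20) rested almost wholly on miR-4516, with 0.0553% from miR-5703 and miR-4434 silent. miR-6089, miR-5100 and miR-8069 were alone in their groups among the matched miRNAs.

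The seed of miR-16, whose members restrain the cell cycle and BCL2, held 1.62%, 1.30%, 1.15% and 1.73% of the signal. miR-16-5p with 0.690% ± 0.127 (SD, n = 4) and miR-15b-5p with 0.651% ± 0.125 carried most of it, with miR-16-5p higher on each array but overlapping ranges, while miR-15a-5p held 0.0835% and miR-424-5p 0.0233%. miR-195-5p, miR-497-5p and miR-6838-5p, which share that seed, were detected on no array. RefSeq places the hairpins of miR-15b and miR-16-2 next to each other on chromosome 3 and those of miR-15a and miR-16-1 on chromosome 13, and mature miR-16-5p can come from either. miR-15b-5p was thus the brighter partner of miR-16-5p, with a share above that of miR-15a-5p on every array.

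Further shared seeds were those of miR-19, miR-29 and miR-148. miR-19a-3p and miR-19b-3p, both members of the miR-17-92 cluster, held 1.19% ± 0.19 (SD, n = 4) together. All 3 members of the miR-29 group, known for repressing collagens and DNA methyltransferases, were detected on all arrays, where 307 of the 2248 matched were. miR-29a-3p held 0.514%, miR-29b-3p 0.295% and miR-29c-3p 0.176%. Their sum was 1.17%, 0.795%, 0.693% and 1.28%, with replicates 1 and 4 above replicates 2 and 3. miR-148a-3p made up 98.9% of its seed group, miR-148b-3p held 0.00871%, and miR-152-3p was detected on 1 array.

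Neighbouring hairpins gave unequal signals. With hairpins of a strand less than 10000 bases apart taken as a cluster, the miR-17-92 cluster at chr13:91350605-91351391 led with 3.26%, 2.87%, 2.51% and 3.47% of the signal, a mean of 3.03% ± 0.42 (SD, n = 4). Of its 12 mature miRNAs 8 were detected on all arrays and 3 on none, where 14.0% and 80.2% of all human miRNAs were. Their mean shares ran from 0.982% for miR-20a-5p through 0.537% for miR-17-5p, 0.371% for miR-19a-3p and 0.163% for miR-92a-3p to 0.127% for miR-18a-5p, 0.0250% for miR-17-3p and 0.00188% for miR-19b-1-5p. miR-19b-3p and miR-92a-3p have a further copy in the cluster on chromosome X, so that their signal cannot be divided between the loci. Of the miRNAs made from that X-linked cluster alone, miR-20b-5p held 0.127% and miR-18b-5p 0.0378%, while miR-106a-5p has no entry on the array. The X-linked cluster has 10 mature miRNAs on the array. Of these, 4 were detected on all arrays and 6 on none, against 14.0% and 80.2% of all human miRNAs.

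On chromosome 14, where an imprinted cluster holds 42 hairpins on the list used, 69 of 73 mature miRNAs were detected on no array and 3 on all, where 80.2% and 14.0% of all human miRNAs were. miR-494-3p alone held 0.277% ± 0.060 (SD, n = 4) and made up most of the 0.293% of the whole cluster. The other members detected on every array were miR-134-5p with 0.0118% and miR-1185-1-3p with 0.00402%. A cluster of 3 hairpins on chromosome 7, MIR25, MIR93 and MIR106B, held 0.568% ± 0.041 (SD, n = 4) of the signal. Its share was even over the arrays, with 0.571%, 0.570%, 0.515% and 0.615%. Log2 scaled signal was less even, with 9.11, 9.57, 9.45 and 9.20 for miR-93-5p and 9.22, 9.51, 9.42 and 9.31 for miR-25-3p. Both were highest on replicates 2 and 3, while miR-106b-5p had 9.41, 9.58, 9.44 and 9.52.

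The arms of most hairpins gave unequal signals. Arms are read by different probes, and probes to the same miRNA differed by up to 15.9-fold, so the order of arms is one of signal. Whether its constancy between arrays reflects the RNAs or the shared probes was not tested. Of 810 hairpins with both arms on the array, 198 had at least 1 arm detected on all arrays. The 5p arm had the higher signal on all 4 arrays in 123 of them and the 3p arm in 73. The authors' processed table gave 69 and 60, with hairpins lacking an entry for either arm left out. Among the 198, the order changed between arrays only in miR-4758 and miR-6819. In 94 hairpins the 5p arm was detected on every array and the 3p arm on none, and in 62 the reverse held. For those hairpins the choice by detection left little room for a change of order, so its constancy there says little. Hairpins numbered up to 1000 had the 5p arm higher in 59 of 100, and those above 1000 in 64 of 98. The 5p arms of these hairpins held 7.22% of the signal and the 3p arms 4.43%.

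Both arms were detected on all arrays in 19 hairpins paired by name, and the ratio of their signals mostly varied little between arrays. Arms with differing stem names are not among the 19. Of these, miR-19b-1-5p held 0.00188% against 0.819% for miR-19b-3p, and miR-16-2-3p 0.00211% against 0.690% for miR-16-5p, all detected on every array. In miR-148a the log2 ratio of 5p to 3p signal was -7.33, -7.31, -7.19 and -7.31, the most uneven of the 19, with the 3p arm ahead. miR-142, a hairpin made in blood cells, had ratios of -3.56, -3.53, -3.45 and -3.54. On the 5p side stood miR-21 with 6.14, 5.71, 5.94 and 6.03, miR-6800 with a mean of 5.08 ± 0.38 (SD, n = 4), miR-3162 with 4.97 ± 0.63, miR-17 with 4.42 ± 0.08 and miR-150 with 4.08 ± 0.23. Also on the 3p side were miR-324 at -2.01 ± 0.12, miR-1249 at -1.57 ± 0.13, miR-4433a at -0.54 ± 0.19 and miR-652 at -0.35 ± 0.20. Over the 19 hairpins the median size of the log2 ratio was 2.38 and the median SD between arrays 0.18. A ratio near 0, such as 0.30 ± 0.08 for miR-9 or 0.20 ± 0.09 for miR-140, sets no order of the arms as RNAs.

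**Figure D4:**
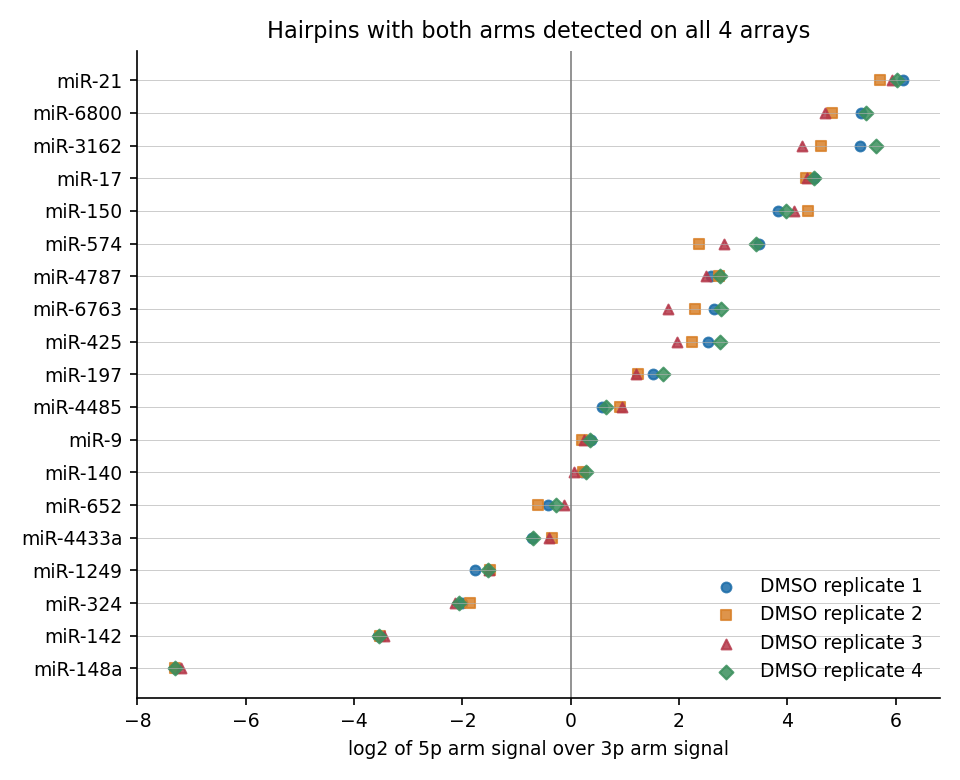
Log2 ratio of 5p to 3p arm signal for the 19 hairpins, paired by name, with both arms detected on all 4 DMSO arrays. Each array has a symbol, and a line marks equal signal. In 13 hairpins every array lies to the right (5p arm higher), in 6 every array lies to the left, and the ratios of miR-148a and miR-142 barely move between arrays.

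Among the brightest hairpins with arms paired by name, dominance was on either side. miR-20a-5p and miR-15b-5p were bright while their 3p arms were detected on 2 arrays each. miR-29a-3p, miR-19a-3p and miR-494-3p were bright while their 5p arms were detected on none, and miR-6869-5p was bright with its 3p arm silent. The main arm of each of these hairpins was the same on all 4 arrays, where a dim or undetected other arm left little room for a change.

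The labelled cell type was checked with lists of miRNAs known to mark tissues. Of 8 miRNAs known from blood and B-lineage cells, 6 were detected on all arrays and 2 on none, where 14.0% and 80.2% of all human miRNAs were, and together they held 0.717%, 0.576%, 0.518% and 0.725% of the signal. The brightest was miR-142-3p with 0.452%, 0.347%, 0.307% and 0.455%, followed by miR-150-5p with 0.121%, miR-342-3p with 0.0435%, miR-142-5p with 0.0339%, miR-181a-5p with 0.0334% and miR-181b-5p with 0.0121%. miR-155-5p and miR-146a-5p, both induced in activated B cells, were detected on no array. Hence the arrays showed markers of blood cells, without those 2 being called detected, and the signals of miR-155-5p, 6.42, 3.40, 4.15 and 7.13, lay where detected and undetected miRNAs overlap.

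Most markers of other tissues were silent, as most human miRNAs were. Over the 11 other lists, 43 of 48 miRNAs (89.6%) were detected on no array, where 80.2% of all human miRNAs were, and 5 (10.4%) were detected on all arrays, where 14.0% were. The 5 held 0.0433% of the signal together. No member was detected of the lists for red cells and platelets (4 miRNAs, among them miR-451a and miR-486-5p), endothelium (2, miR-126-3p and miR-126-5p), stroma and smooth muscle (5, among them miR-143-3p), epithelium (7, among them miR-200c-3p and miR-205-5p), liver (miR-122-5p), heart and skeletal muscle (7, among them miR-1-3p and miR-206), pluripotent cells (8, among them miR-302a-3p) and pancreas (3, among them miR-375). The exceptions were miR-223-3p of the myeloid list, miR-9-5p and miR-9-3p of the nervous system list of 6, and miR-96-5p and miR-183-5p of the sensory organ list of 3. miR-223-3p was dim, with 0.00402%, 0.00444%, 0.00457% and 0.00374%, and miR-223-5p was silent. miR-9-5p held 0.0137%, 0.00845%, 0.00793% and 0.0142%, miR-96-5p 0.0133% ± 0.0020 (SD, n = 4), and miR-124-3p and miR-182-5p were silent.

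Another pair of lists was taken from miRNAs that the study names for ties to MM. The study chose them on arrays of this series, so their counts are no independent evidence of anything about the list. Some are named there without an arm, for which both arms of miR-148a but only the 5p arms of miR-106b and miR-125b were taken, and miR-106b-3p was detected on no array. With this choice, all 17 mature miRNAs of the list reported as raised or oncogenic in MM were detected on every array, where 14.0% of all human miRNAs were, and their summed share was 4.84%, 4.10%, 3.57% and 5.16%. Most of it belonged to members of the miR-17-92 cluster and to miR-148a-3p, whereas let-7c-5p held 0.0223%, miR-125b-5p 0.0306% and let-7i-5p 0.00867%. The other list of 9 holds miRNAs named as lowered in MM, methylated there or raised by a demethylating drug in MM cell lines. Of the 9, 5 were detected on all arrays, 2 on some and 2 on none. Of all human miRNAs, 14.0% were detected on all arrays and 80.2% on none. miR-630 held 0.0859% ± 0.0097 (SD, n = 4), miR-320c 0.0826% ± 0.0020, miR-1290 0.0483% ± 0.0133 and miR-125a-3p 0.00720% ± 0.00040. miR-198 and miR-877-5p were silent, miR-601 was detected on replicates 1 and 4 and miR-765 on replicate 4.

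Spread between arrays was measured on log2 signal after arrays were brought to a common 75th percentile, taken over the 356 miRNAs that all arrays detected. The median SD over the 4 arrays was 0.16, with quartiles at 0.10 and 0.24 and a range from 0.02 to 0.63. In the 89 dimmest of these miRNAs the median SD was 0.23, and in the next sets of 89 up to the brightest it was 0.13, 0.16 and 0.14, so brightness above the dimmest set made little difference. The steadiest were miR-4449 with log2 signals of 4.33, 4.35, 4.37 and 4.34, miR-638 with 8.68, 8.63, 8.67 and 8.70, and miR-30b-5p, miR-6858-5p and miR-423-5p with SDs of 0.03. More than 2-fold differences after scaling were few, at most 7 of 356 miRNAs, between replicates 3 and 4.

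The largest spread belonged to miR-210-3p, the miRNA best known for its induction by hypoxia, with log2 signals of 5.52, 6.91, 6.16 and 5.66 and an SD of 0.63. Replicate 2 was highest, also without scaling, where the values were 5.86, 6.56, 5.62 and 6.20. miR-8485 had 4.32, 5.07, 5.34 and 4.01 (4.45, 5.15, 5.31 and 4.22 with quantile normalization and 4.66, 4.72, 4.80 and 4.56 unscaled), and miR-4286, the only bright miRNA among the 10 most variable, had 10.57, 11.55, 11.50 and 10.56. For miR-4286 replicates 2 and 3 also stood above the others with quantile normalization, at 10.68, 11.61, 11.52 and 10.68, while unscaled values were 10.91, 11.20, 10.97 and 11.10. The other 7 were miR-3151-3p, miR-6763-3p, miR-6813-3p, miR-4758-3p, miR-6865-3p, miR-6889-3p and miR-4701-3p, all dim 3p arms with mean log2 signals of 3.68 to 3.99. For each of these 7 the arrays lay closer together without scaling, and their place among the most variable holds for scaled signal. Signals before scaling and log2 were 15.11, 13.35, 14.63 and 13.95 for miR-6813-3p. For miR-6865-3p they were 14.53, 13.17, 13.76 and 14.63. Of the 7, miR-4701-3p differed most between arrays without scaling.

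**Figure D5:**
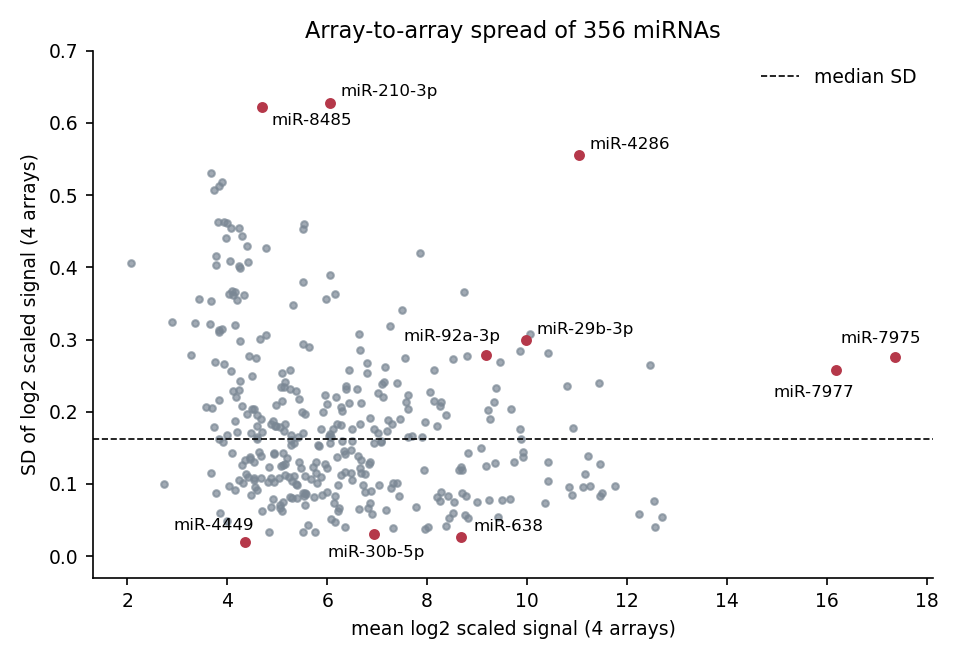
SD of log2 scaled signal over the 4 DMSO arrays against its mean, with a point for each of the 356 miRNAs detected on all arrays and a dashed line at the median SD of 0.16. Named miRNAs are in red, with miR-210-3p, miR-8485 and miR-4286 highest and miR-4449, miR-638 and miR-30b-5p near 0.

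The most variable 10%, 36 miRNAs with an SD of at least 0.36 in scaled signal, were described by brightness, arm, base content and array. Some of them, such as miR-6813-3p above, were nearly even before scaling, so the traits given here hold for scaled signal. Their median log2 signal was 4.23, against 5.91 for all 356. Names ending in 3p made up 17 of the 36 (47.2%), against 99 of the 356 (27.8%). In the 31 with a sequence the median content of C was 45.5% and that of G 15.0%, against 18.2% and 36.4% in the miRNAs detected on all arrays. After scaling, replicate 3 was the highest array for 28 of the 36 and replicate 4 the lowest for 25, and over all 356 miRNAs these arrays also led, with 146 and 108. With quantile normalization replicate 3 was highest for 24 and replicate 4 lowest for 20, and with that percentile taken over every human miRNA replicate 2 was highest for 18, replicate 3 for 15 and replicate 4 lowest for 23. Without scaling, which leaves the brightness of the arrays in the values, replicate 4 was highest for 20 and replicate 2 lowest for 18.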

How the data were processed

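The deposited text from Agilent Feature Extraction 10.7.3.1 gives a background-corrected intensity for every spot, with no step that makes arrays alike. The authors' processed table, in log2 units, served as an alternative only. Its DMSO columns have medians of -3.31, -3.13, -3.13 and -3.31, equal to their lowest values, and correlate with log2 scanner signal at r = 0.983 to 0.997 over detected miRNAs. How its floor and scaling were set is not given in the sources used here.

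Spots marked as population or non-uniformity outliers were left out, among them the only saturated human spot. Spots were averaged per probe and probes per miRNA. Detection is the scanner software's mark. Only the 4 DMSO arrays entered, as 1 group, so that no test was made, and their number limits precision. For spread, each array was scaled to the geometric mean of the arrays' 75th percentiles.

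The members and lists were chosen with earlier results of these data known. By rule the text names the 25 brightest miRNAs, detected members of the 8 largest seed groups, the 10 brightest hairpins and the 5 largest arm ratios on each side, the 10 largest and 5 smallest SDs, the 5 values on each side of detection, the listed markers and the miRNAs of the study's table on MM. Grouping by number, cluster, sequence end, base content and the most variable 10%, and the miRNAs named there, was chosen after their values were seen. Beyond these choices, the text gives the seed groups of miR-19, miR-29 and miR-148 and silent members of larger groups. It also gives the arm ratios of miR-652, miR-9 and miR-140.

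Alternatives were other ways to combine probes, normexp background correction of median spot signal with an offset of 50 (limma 3.58.1, R 4.3.3), the processed table, outlier spots kept, other totals and scalings, detection above negative controls (outlier spots left out) and leaving out each array. The steps, in Python 3.11.15 with pandas 2.3.3, numpy 2.4.6 and matplotlib 3.10.9, were tested on simulated data.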

Additional observations from a re-analysis of the deposited data

Results flagged for a closer look

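In 112 groups of 4 arrays, values were checked for an array far from the others by the 95% critical value for the gap to the nearest array over the whole range. Chance gives such a gap in about 1 in 20 groups, and 3 groups had it. The log2 signal of miR-150-5p was 8.83 on replicate 2 and 8.73, 8.71 and 8.71 on replicates 1, 3 and 4. That of let-7i-5p was 5.09 on replicate 4 and 4.87, 4.90 and 4.88 on replicates 1 to 3. The log2 ratio of the 5p to the 3p arm of miR-1249 was -1.77 on replicate 1 and -1.48, -1.51 and -1.52 on replicates 2 to 4.

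Control probes that the human miRNA totals leave out also gave signals far above the negative controls. The mean signal over the 4 arrays was 264842 for hur_1, 261706 for hur_2, 31606 for hur_6, 11281 for mr_1, 11243 for hur_4 and 208 for hur_5. Apart from hur_6, which was higher on replicate 2 than on replicate 1, these probes were brighter on replicates 1 and 4 than on replicates 2 and 3.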

How the results depend on the processing

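miR-7975 and miR-7977 were the brightest human miRNAs under each alternative run, with 59.7% to 69.1% of the signal together. The share of the 10 brightest was 72.4% with normexp and 74.5% in the processed table, and that of the largest seed group 43.3% and 41.1%. Without miR-7975 and miR-7977, chosen after seeing the data, these became 38.6% and 6.33%, and 16 miRNAs made up 50% of the signal. The processed table holds 2031 of the human miRNAs, and hairpins with an arm missing from it were left out. Among the hairpins that remained, the 5p arm was higher in 69 and the 3p arm in 60. These counts cover fewer hairpins than the main result and do not show a changed order of arms. Detection above the negative controls gave 321 miRNAs on all arrays and 2100 on none. The median SD was 0.48 without scaling, 0.15 with quantile normalization, 0.19 with the percentile over all human miRNAs, 0.18 with the scanner's sum per miRNA and 0.19 with normexp. The cause of the moves in shares and SDs was not tested. The number of miRNAs for 50% of the signal was otherwise 2 under each alternative and with each array left out, and the other counts and overall shares moved by less than 1 SD or less than 1.5-fold.

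Leaving out single arrays gave these ranges. The count detected on all arrays was 356 to 369 and on none 2045 to 2065, the share of the 10 brightest 77.9% to 79.6%, that of the largest seed group 46.2% to 48.1%, the hairpins with the higher 5p arm 123 to 125 and 3p arm 73 to 78, and the median SD 0.15 to 0.16. Of 148 named shares 58 moved by more than 1 SD with normexp, 58 in the processed table, 49 with the brightest probe, 40 with all human miRNAs in the total, 14 with probes summed, 12 with the scanner's sum and 6 with outlier spots kept.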

Other observations

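Families counted by the number in the name, a grouping chosen after the data were seen, are given beside the share over all human miRNAs, 80.2% detected on no array and 14.0% on all. Of 70 miR-548 entries, a family grown from transposable elements in primates, 69 were detected on no array. The 10 entries of miR-302, known from pluripotent cells, were all silent. Of 48 entries from the primate cluster on chromosome 19, 46 were detected on no array and 0 on all. Of the others, 8 of 17 let-7 entries and 4 of 11 miR-30 entries were detected on every array. For miR-378, miR-181 and miR-1273 the counts were 2 of 11, 2 of 10 and 1 of 9. The main let-7 arms held 0.317% ± 0.065 (SD, n = 4) of the signal together with miR-98-5p, of which let-7a-5p gave 0.165%, while let-7e-5p and miR-98-5p were silent.

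A single human spot was saturated on the DMSO arrays. It belonged to miR-204-3p on replicate 3, read 769178 and was marked as an outlier by the scanner software.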
